A study of Mus musculus with 40 samples.

Results

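Epithelia move salt and water with a small number of transporter families, and the RNA of these families was measured in sorted cells of mouse colon tumors, healthy colon and blood. The set was every protein-coding gene whose symbol belongs to the Slc4a, Slc9a, Slc12a or Slc26a families or to the Atp1a and Atp1b subunits of the sodium pump, together with Scnn1a, Scnn1b, Scnn1g, Cftr and Atp12a. The symbols alone chose the genes, and they gave 52 members of the 45706 genes in the tables. They comprised 10 Slc4a, 9 Slc9a, 9 Slc12a and 11 Slc26a genes, 4 Atp1a and 4 Atp1b genes, 3 Scnn1 genes, Cftr and Atp12a.

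The study profiled 40 libraries of polyA RNA in 10 groups of 4: epithelial cells, stromal cells, neutrophils and monocytes of colon tumors, epithelial and stromal cells of healthy colon, and neutrophils and monocytes of blood from tumor-bearing and from healthy mice. Tumor-bearing mice were of strain C57Bl6/Sv129 (the number in this name rises from sample to sample in the labels) with the transgene Cdx2CreERT2 - Apc fl/fl, in which a Cre recombinase driven by the intestinal Cdx2 promoter deletes the tumor suppressor Apc once it is activated. They received 1 intraperitoneal dose of 25 mg/kg Tamoxifen in oil at 8 to 10 weeks of age by the labels, where the study's methods give a wider range. Healthy mice were C57Bl6 with no transgene and no agent, so strain, genotype, Tamoxifen and tumor cannot be told apart in any comparison between the 2 kinds of mice. Cells were enriched by magnetic or fluorescence sorting, and the study names fluorescence sorting for the sequenced tumor cell types. Each sample held pooled cells, in which fewer cells of a type and less RNA per cell cannot be told apart. The titles of 3 libraries of healthy blood monocytes and 1 of tumor-bearing blood neutrophils name a pair of animals each.

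Libraries held 10717873 to 38002939 counts, and mitochondrial transcripts took 5.34% to 83.9% of them, the most in healthy epithelial library 4. Cell type markers were checked as summed RPKM (reads scaled by gene length and by the mapped reads of the library). Epithelial markers came to 98.9 to 478 RPKM in healthy and 165 to 421 RPKM in tumor epithelial libraries, with all 14 genes detected in each. Within the epithelium, the surface colonocyte markers came to 188 to 1322 RPKM in healthy and 8.06 to 45.9 RPKM in tumor libraries, and the crypt base and Wnt target list to 6.18 to 40.5 and 139.9 to 173 RPKM. The stromal groups differed in kind: fibroblast markers came to 497 to 2671 RPKM in healthy and 6.93 to 26.2 RPKM in tumor stromal libraries, while epithelial markers reached 32.8 to 259 RPKM in tumor stromal libraries and were highest in libraries 1 and 2. The same epithelial list reached 189.6 RPKM in tumor neutrophil library 1 against 14.1 to 45 in the other tumor neutrophil libraries, and 1.99 to 39.4 RPKM in tumor monocytes. Xist RNA, made by the inactive X chromosome, was above 1 RPKM in all 4 healthy epithelial libraries and in only 1 of the 4 tumor epithelial libraries (library 4), so sex nearly followed the groups there. Apc was listed at 0.343 to 3.34 RPKM in healthy and 5.97 to 6.51 RPKM in tumor epithelial libraries. These gene-level counts include exons outside the deleted part and therefore do not check the deletion.

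As background, the sodium pump, a catalytic alpha subunit (Atp1a) with a beta subunit (Atp1b), sits in the basolateral membrane and keeps cell sodium low. In the colon that gradient drives sodium uptake across the apical membrane, by sodium/proton exchangers (Slc9a2 and Slc9a3) working beside the chloride/bicarbonate exchanger Slc26a3, and by the epithelial sodium channel ENaC, built of the subunits Scnn1a, Scnn1b and Scnn1g and raised by aldosterone in the distal colon. Secretion runs the other way, with chloride entering from the blood side through the cotransporter Slc12a2 and leaving through the chloride channel Cftr, and bicarbonate entering through Slc4a4.

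Levels of the members spanned the groups widely. Of the 52 members, 20 stayed under a mean of 1 RPKM in all 10 groups, 7 reached a mean of at least 10 RPKM in some group and 4 stayed at or above 1 RPKM in all groups. The highest mean lay in healthy epithelial cells for 14 members, in healthy stromal cells for 9 and in tumor epithelial cells for 7, and the remaining members peaked in the other groups. Slc26a7 had at most 3 counts in every library. Atp12a, the colonic proton/potassium pump, did not exceed 0.136 RPKM in any of the 40 libraries and passed the filter on low counts in no comparison.

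**Figure D1:**
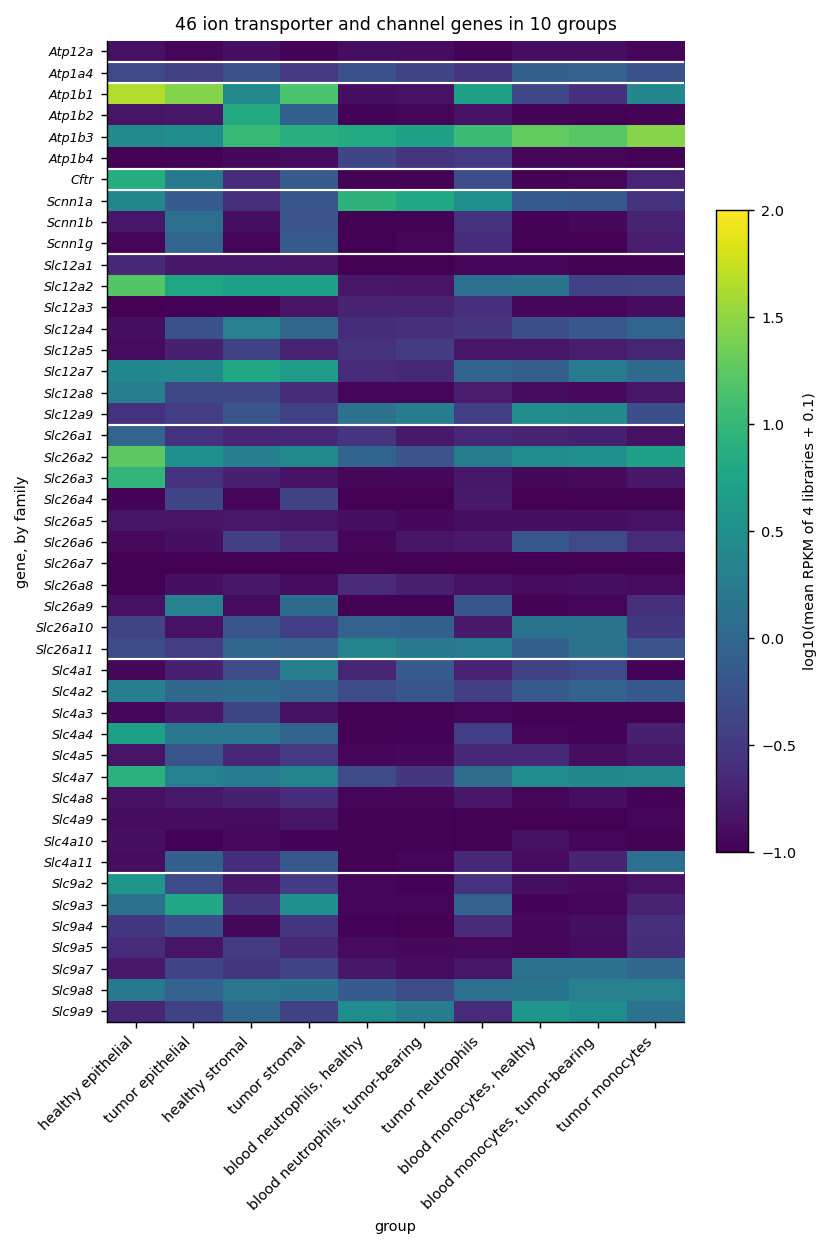
Heat map of log10(mean RPKM + 0.1) for 46 members (rows) in the 10 groups (columns, 4 libraries each). Color gives the level, and Slc26a3, with a mean of 9.26 ± 6.49 RPKM (SD) in healthy epithelial cells, is near 0 in blood cells.

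The main question was how these genes differed between tumor and healthy epithelial cells. The test was edgeR's quasi-likelihood F-test, run on every gene past the filter on low counts, and a call needed a Benjamini-Hochberg adjusted p under 0.05 and a log2 fold change (log2FC, given with its standard error after ±) past 1.5. Of the 43 members tested, 8 were higher in the tumor (18.6%) and 14 lower (32.6%), while 7.52% of all genes tested were higher and 7.88% lower. The members tested had a median log2FC of -0.93, and all genes one of -0.01. The members lower in the tumor included Slc26a3, Slc9a2, Scnn1a, Cftr and Slc12a2, and those higher included ENaC's beta and gamma subunits, Slc26a9 and Slc26a4. On the deposited RPKM scale, limma on log2(RPKM + 0.1) called 9 higher and 5 lower, with the median of all genes moved up by 0.58. Lower calls thus did not outnumber higher ones, and the share of all genes called on that scale is not given here. No called member changed direction there. RPKM divides by all mapped reads, of which mitochondrial transcripts took 48.6% to 83.9% in healthy and 46.3% to 60.5% in tumor epithelial libraries. With a term for sex, read from Xist, 9 members were called, 3 higher and 6 lower. The share of all genes called with that term is not given, so the smaller count has no background beside it. That term rests on 1 tumor library, and the calls that it ended are given with each gene. The 9 members that did not pass the filter were Atp12a, Atp1b4, Slc12a3, Slc26a6, Slc26a7, Slc26a8, Slc4a1, Slc4a9 and Slc4a10.

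Slc26a3, the apical exchanger that takes up chloride for bicarbonate, had the largest decrease. Its level was 105, 225, 206 and 178 normalized CPM in the healthy libraries and 1.08, 0.299, 4.32 and 2.82 in the tumor libraries (CPM, counts scaled to the library total and by TMM factors, listed from library 1 to 4). Every tumor library lay far below the lowest healthy library (log2FC -6.34 ± 0.70, adjusted p = 0.000157). Slc26a2, a sulfate transporter, measured 632, 761, 692 and 481 normalized CPM in the healthy libraries and 62, 51.9, 103 and 103 in the tumor libraries (log2FC -3.00 ± 0.28, adjusted p = 6.46e-05). Its tumor mean was 3.11 ± 1.61 RPKM (SD, n = 4). Less abundant family members moved the same way: Slc26a1, a sulfate and oxalate exchanger, had a log2FC of -2.68 ± 0.62 (adjusted p = 0.0102) with overlapping groups, and Slc26a10 one of -3.30 ± 0.87 (adjusted p = 0.0205).

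Of the 9 sodium/proton exchangers tested, 3 were called lower and 0 higher. Slc9a2, an apical exchanger of the colon, measured 46.7, 99.9, 84.9 and 77 normalized CPM in the healthy libraries and 4.9, 3.5, 6.69 and 7.27 in the tumor libraries, without overlap (log2FC -3.78 ± 0.32, adjusted p = 4.14e-05). Slc9a8, an apical and endosomal exchanger, was lower at 56.2, 37, 41.3 and 44.3 normalized CPM in the healthy libraries and 17.1, 9.43, 16.2 and 17.4 in the tumor libraries (log2FC -1.57 ± 0.25, adjusted p = 0.0012). Slc9a3, the main apical exchanger for sodium uptake, had a higher mean in the tumor and did not pass the test, at 2.87, 13.2, 7.77 and 27.4 normalized CPM in the healthy libraries and 33.9, 25.4, 32.8 and 37.1 in the tumor libraries (log2FC 1.35 ± 0.53, adjusted p = 0.0982). Its healthy libraries spread widely, and healthy library 4 fell among the tumor values. Slc9a5 was called lower at -2.27 ± 0.54 (adjusted p = 0.0128), from under 1 RPKM in both groups. Slc9a4, Slc9a7 and Slc9a9 did not pass the test. With the term for sex, Slc9a8 had a log2FC of -1.36 with an adjusted p of 0.122, Slc9a5 -2.36 with an adjusted p of 0.287, Slc26a1 -3.45 with an adjusted p of 0.147 and Slc26a10 -2.37 with an adjusted p of 0.505.

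Cftr, Slc12a2, Slc4a4 and Slc4a7, which carry chloride or bicarbonate across the membranes of epithelial cells, were each called lower, while other anion transporters were called higher (Slc26a9, Slc26a4 and Slc4a5). Cftr, the apical chloride channel, measured 198, 176, 160.2 and 128 normalized CPM in the healthy libraries and 17.9, 14.6, 37.2 and 27 in the tumor libraries (log2FC -2.77 ± 0.30, adjusted p = 0.000153). Slc12a2, the basolateral cotransporter that loads sodium, potassium and chloride, was at 332, 348, 349 and 127 normalized CPM in the healthy libraries and 81.8, 63.6, 94.6 and 81.6 in the tumor libraries (log2FC -1.85 ± 0.31, adjusted p = 0.00165). Healthy library 4, with the highest mitochondrial share, stood below the other healthy libraries for Slc12a2 and still above every tumor library. Slc4a4, which loads sodium with bicarbonate, was at 149.8, 211, 142 and 77.8 normalized CPM in the healthy libraries and 34.6, 24.3, 39.7 and 39.4 in the tumor libraries (log2FC -2.07 ± 0.30, adjusted p = 0.000697). Slc4a7, another sodium bicarbonate cotransporter, was at 180.5, 201, 203 and 90.7 normalized CPM in the healthy libraries and 22.5, 23.5, 37.7 and 39.4 in the tumor libraries (log2FC -2.46 ± 0.31, adjusted p = 0.000317). The groups of both bicarbonate cotransporters lay apart, with healthy library 4 the lowest of its group. Slc12a8 had 29.2, 23.2, 26.6 and 14.2 normalized CPM in the healthy libraries and 2.92, 1.2, 4.64 and 3.96 in the tumor libraries (log2FC -2.86 ± 0.42, adjusted p = 0.000867). Slc4a2, the basolateral chloride/bicarbonate exchanger, missed the fold threshold at -1.49 ± 0.28 (adjusted p = 0.00362). With the term for sex, Slc26a3, Slc26a2, Slc9a2 and Cftr were still called lower, and Slc12a2 had an adjusted p of 0.107, Slc4a4 one of 0.0808, Slc4a7 one of 0.0535 and Slc12a8 one of 0.102, with every direction kept.

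**Figure D2:**
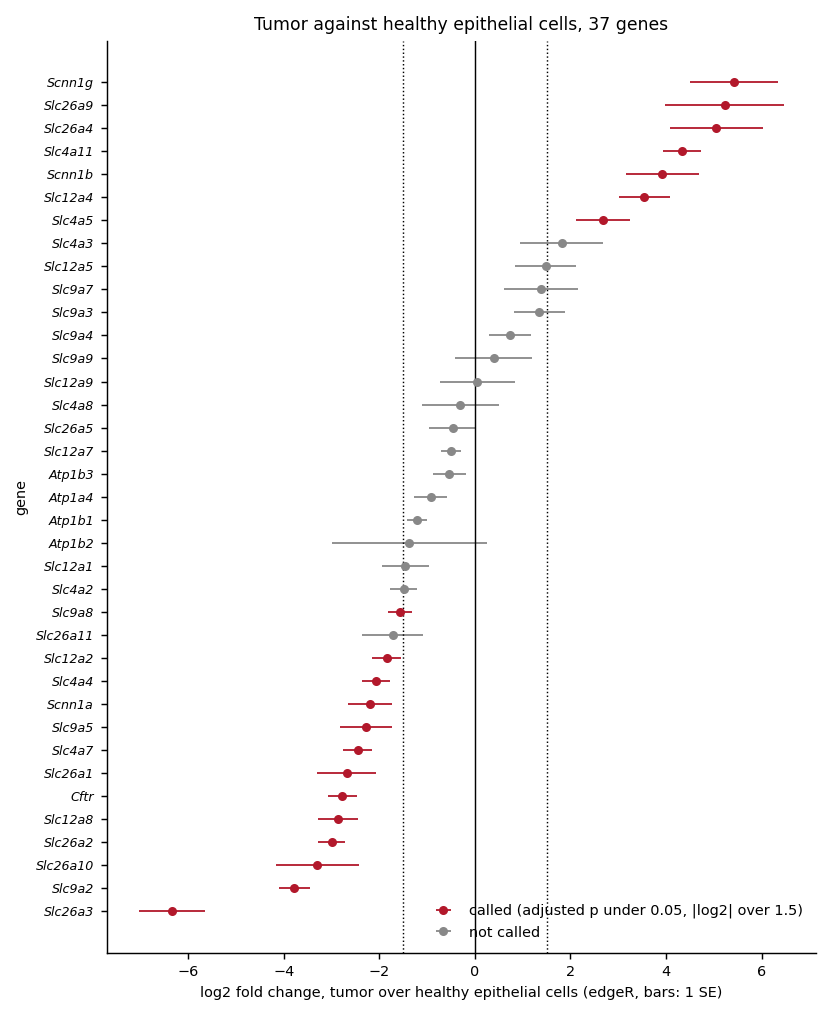
Log2 fold change (x axis, tumor over healthy epithelial cells, ± 1 standard error) for 37 members (y axis, ordered by fold change), with color for the 7 called higher and the 13 called lower. Slc26a3 is the lowest at -6.34 and Scnn1g the highest at 5.42.

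ENaC's subunits changed in opposite directions. Scnn1a, the alpha subunit, measured 29.6, 27.8, 34.8 and 11.4 normalized CPM in the healthy libraries and 7.59, 2.01, 5.9 and 7.06 in the tumor libraries (log2FC -2.20 ± 0.46, adjusted p = 0.00583). Scnn1b, the beta subunit, measured 0.996, 0.444, 0.046 and 0.12 normalized CPM in the healthy libraries and 7.19, 9.13, 3.56 and 5.5 in the tumor libraries (log2FC 3.92 ± 0.76, adjusted p = 0.00406). Scnn1g, the gamma subunit, measured 0.293, 0.127, 0.046 and 0 normalized CPM in the healthy libraries and 7.91, 0.854, 4.57 and 8.91 in the tumor libraries (log2FC 5.42 ± 0.93, adjusted p = 0.00196). None of the 3 subunits, all of them called, overlapped between the groups, although tumor library 2 had the lowest Scnn1g of its group. Per length, mean levels in the tumor were 0.638 ± 0.305 RPKM for Scnn1a, 1.14 ± 0.239 for Scnn1b and 0.858 ± 0.542 for Scnn1g (SD, n = 4), while in healthy epithelium they were 2.27 ± 1.49, 0.0554 ± 0.0581 and 0.0139 ± 0.0124. On this scale Scnn1a in healthy library 4 was at 0.234 RPKM and lay within the tumor range. Only Scnn1a was above a mean of 1 RPKM in healthy cells, and in the tumor only Scnn1b was, although the tumor ranges of Scnn1b and Scnn1g overlapped. With the term for sex, Scnn1g kept its call at a log2FC of 6.10 with an adjusted p of 0.0147, while Scnn1b had 3.72 with an adjusted p of 0.0619 and Scnn1a -1.88 with an adjusted p of 0.278.

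Scnn1g (chr7:121734479-121768475) and Scnn1b (chr7:121865038-121918514) lie in this order on the plus strand of mouse chromosome 7 (GENCODE M21, GRCm38), 96563 bases apart. Scnn1b overlaps Cog7 on the other strand, and libraries made from double-stranded cDNA do not mark strand, so reads of the shared stretch cannot be told apart. Cog7 was at 0.15 to 0.621 RPKM in healthy and 0.264 to 0.539 RPKM in tumor epithelial libraries. The promoters of Slc26a3, the member with the largest decrease, of the 2 neighbouring sodium channel genes and of Slc26a9 are shown, 250 bases before to 50 after the RefSeq start (GRCm38.p6, plus strand), so that a lower member can be set beside higher ones. They were picked after their values were seen, and Slc26a4 and Slc4a11, which rose more than Scnn1b, are not among them. Capitals mark the only searched motif in these 4 promoters, the CDX-like letters TTTATG at base 244 of the Scnn1g promoter.
Slc26a3, chr12:31437969-31438268: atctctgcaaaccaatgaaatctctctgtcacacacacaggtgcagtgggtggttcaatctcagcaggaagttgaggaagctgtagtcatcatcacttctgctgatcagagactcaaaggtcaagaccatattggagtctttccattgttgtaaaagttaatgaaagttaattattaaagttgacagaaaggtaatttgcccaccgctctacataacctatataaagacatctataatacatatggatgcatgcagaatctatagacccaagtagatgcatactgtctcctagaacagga
Scnn1g, chr7:121734229-121734528: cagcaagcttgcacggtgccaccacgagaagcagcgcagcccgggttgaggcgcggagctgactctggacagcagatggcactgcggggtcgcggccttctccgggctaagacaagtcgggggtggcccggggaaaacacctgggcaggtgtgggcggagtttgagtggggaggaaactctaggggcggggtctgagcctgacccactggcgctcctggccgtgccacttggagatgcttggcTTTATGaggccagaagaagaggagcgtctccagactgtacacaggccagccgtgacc
Scnn1b, chr7:121864788-121865087: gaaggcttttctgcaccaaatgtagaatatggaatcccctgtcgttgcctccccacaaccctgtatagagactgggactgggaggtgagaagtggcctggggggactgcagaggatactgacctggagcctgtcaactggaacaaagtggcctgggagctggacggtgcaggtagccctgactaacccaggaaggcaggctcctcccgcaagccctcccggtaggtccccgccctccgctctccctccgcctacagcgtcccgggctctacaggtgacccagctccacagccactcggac
Slc26a9, chr1:131743772-131744071: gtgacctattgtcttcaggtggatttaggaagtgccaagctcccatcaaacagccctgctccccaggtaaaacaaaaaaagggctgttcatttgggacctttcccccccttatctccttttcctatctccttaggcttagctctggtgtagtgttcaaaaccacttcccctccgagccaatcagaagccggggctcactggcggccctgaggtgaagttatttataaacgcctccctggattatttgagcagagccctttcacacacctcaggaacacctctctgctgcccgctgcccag
The Slc26a3 promoter was 39.33% G and C, against 64.67% for Scnn1g, 61.67% for Scnn1b and 52% for Slc26a9. Searched on both strands, TTTATG was present in 11.85% of all 32851 RefSeq promoters of this length and in 5 of the 43 promoters of the members (34 of the 52 had an entry). The Slc26a4 promoter held TTTATG and TTTATNG. The longer CDX form TTTATNG was in 10.91% of all promoters and 4 of the members', the TCF/LEF letters CTTTGAT in 3.729% and 2 (Atp1b4 and Slc12a3), and the HNF4 letters CAAAGTCCA in 0.475% and 0. The steroid receptor element, which aldosterone's receptor binds, was in 0.475% of all promoters and in 0 of the members'. TTTATG and TTTATNG share their first letters and can overlap. A match is a description of letters only.

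Other members rose from low levels. Slc26a9, a chloride transporter known from stomach and airway, measured 2.58, 0, 0 and 0 normalized CPM in the healthy libraries and 19.6, 41.5, 18.9 and 17.3 in the tumor libraries (log2FC 5.23 ± 1.24, adjusted p = 0.0122). It was at 0 in healthy libraries 2 to 4 and highest in tumor library 2. Its tumor mean was 2.05 ± 0.727 RPKM (SD, n = 4). Slc26a4, the exchanger pendrin of inner ear, thyroid and kidney, rose by a log2FC of 5.05 ± 0.97 (adjusted p = 0.00389) and Slc4a11, mutated in a corneal dystrophy, by 4.34 ± 0.40 (adjusted p = 6.32e-05). Slc12a4, the widespread potassium chloride cotransporter, rose by 3.55 ± 0.54 (adjusted p = 0.000995) and Slc4a5, a sodium bicarbonate cotransporter, by 2.68 ± 0.57 (adjusted p = 0.00691). Those last 4 genes stayed under 1 RPKM in both groups. With the term for sex, Slc4a11 and Slc12a4 kept their calls, while Slc26a9 had 4.74 with an adjusted p of 0.122, Slc26a4 4.24 with an adjusted p of 0.0779 and Slc4a5 1.22 with an adjusted p of 0.451.

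Of the sodium pump's beta subunits, Atp1b1, the usual one of epithelia, was lower at 278, 371, 399 and 377 normalized CPM in the healthy libraries and 146, 196, 156 and 115 in the tumor libraries, with an adjusted p of 0.00178 and a log2FC of -1.22, under the fold threshold. Its groups did not overlap. Atp1b3 did not pass the test at -0.54 ± 0.35 (adjusted p = 0.312). Atp1b1 overlaps Nme7 on the other strand, where reads of the shared stretches cannot be told apart.

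**Figure D3:**
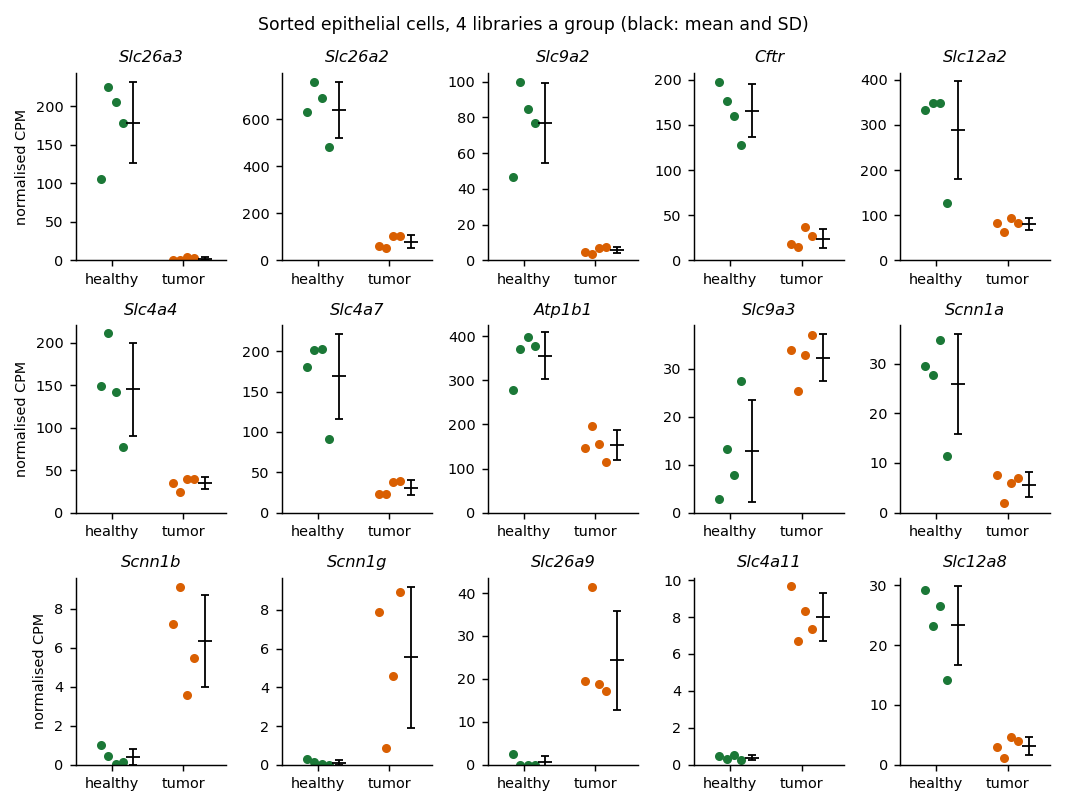
Normalized CPM (y axis, from 0, 1 scale per gene) of 15 members in the 4 healthy and the 4 tumor epithelial libraries (points), with the mean and SD of each group. Slc26a3, Cftr and Slc4a7 do not overlap between the groups, and Slc9a3 does.

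A list of 64 other genes of ion and water transport (carbonic anhydrases, aquaporins, potassium and chloride channels, regulators of the pump and of ENaC) was counted beside the members. Of 53 tested, 3 were higher in tumor epithelial cells (5.66%) and 30 lower (56.6%), with a median log2 fold change of -1.85. Car1 and Car2, the carbonic anhydrases that make bicarbonate for the apical exchangers, had means of 577 RPKM in healthy and 5.2 RPKM in tumor cells (log2FC -7.44, adjusted p = 0.000128) and 54.5 RPKM in healthy and 2.25 RPKM in tumor cells (-5.09, adjusted p = 1.22e-05). Clca1, a secreted goblet cell protein, had 13.2 RPKM in healthy and 0.171 RPKM in tumor cells, and Guca2a, the hormone guanylin that activates Cftr through cyclic GMP, 71.2 RPKM in healthy and 3.8 RPKM in tumor cells. Hsd11b2, the enzyme that keeps cortisol-like hormones from aldosterone's receptor, had 8.33 RPKM in healthy and 0.76 RPKM in tumor cells (log2FC -3.91, adjusted p = 0.000214). The markers of surface colonocytes, where Slc26a3 and Car1 normally lie, moved with these genes (Car1 and Guca2a belong to that list, and Clca1 to the goblet cell list), and goblet cell markers came to 66.6 to 1088 RPKM in healthy and 16.9 to 74.8 RPKM in tumor libraries. The part of cell composition in the changes of single genes was not tested.

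Stromal cells were compared in the same way to ask whether the tumor change was shared by the surrounding tissue. Of 43 members tested, 6 were higher in tumor stromal cells (14.0%) and 1 lower (2.33%), while 3.39% of all genes were higher and 5.01% lower. Atp1b2, the beta subunit of glia and other non-epithelial cells, was lower, at 101, 59.2, 92.8 and 85.2 normalized CPM in healthy stromal libraries and 2.95, 8.72, 21.3 and 15.4 in tumor stromal libraries (log2FC -2.81 ± 0.55, adjusted p = 0.0165). The members that rose included apical transporters of epithelium. Slc26a9 measured 0.339, 1.02, 0.112 and 0.298 normalized CPM in healthy stromal libraries and 40.8, 38.9, 9.83 and 4.52 in tumor stromal libraries (log2FC 5.71 ± 0.96, adjusted p = 0.00998). Slc9a3 measured 1.85, 2.14, 1.35 and 0.448 normalized CPM in healthy stromal libraries and 49.9, 67.7, 12.9 and 5.16 in tumor stromal libraries (log2FC 4.54 ± 0.89, adjusted p = 0.0166). Scnn1g, Slc9a2, Slc4a11 and Scnn1a had log2FC values of 6.08, 2.65, 2.33 and 2.12. All 14 epithelial markers were detected in every tumor stromal library, with libraries 1 and 2 at 259 and 149.6 RPKM summed and healthy stromal libraries at 2.5 to 26.4 RPKM, and this list's part in the higher members was not tested. Neutrophil markers came to 22.9 to 1563 RPKM summed in tumor and 6.73 to 45.7 RPKM in healthy stromal libraries. Their part in the higher members, Scnn1a among them, was not tested either. The study's gate for stromal cells was negative for CD45 and EpCAM, and its purity in these libraries was not tested here. Without tumor stromal libraries 1 and 2, Slc26a9 was still called at a log2FC of 4.02 with an adjusted p of 0.0321, Scnn1g at 5.14 with an adjusted p of 0.042 and Atp1b2 at -2.19 with an adjusted p of 0.0139. Slc9a3 then had 2.65 with an adjusted p of 0.0639, Scnn1a 1.75 with an adjusted p of 0.107, Slc9a2 1.55 with an adjusted p of 0.211 and Slc4a11 1.11 with an adjusted p of 0.257. With a term for sex by Xist, 5 members were called higher and 0 lower, and the calls of Atp1b2, at a log2FC of -2.79 with an adjusted p of 0.0616, and of Slc4a11, at 2.65 with an adjusted p of 0.0659, were lost. The share of all genes called with that term is not given. The RPKM scale (log2 of RPKM + 0.1, limma) gave 3 higher and 3 lower.

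The tumor change itself was then tested between epithelial and stromal cells with an interaction term at an adjusted p under 0.05. Of 47 members tested, the change was more positive in epithelial cells for 4 (8.51%) and more negative for 15 (31.9%), while 7.21% and 7.93% of all genes were so. Slc26a2 had a difference of -3.82 (adjusted p = 8.71e-05) on the log2 scale, Cftr one of -5.21 (adjusted p = 0.0316) and Scnn1a one of -4.32 (adjusted p = 0.000761). The members with a more positive change in epithelial cells included Slc4a3, Slc12a4 and Slc12a5. Scnn1g and Slc26a9, higher in the tumor in both cell types, did not differ by this test at -0.64 (adjusted p = 0.798) and -0.50 (adjusted p = 0.879). Since the tumor stromal libraries held epithelial RNA and few fibroblast transcripts, a difference between these changes includes the makeup of the stromal groups, whose part was not tested. On log2(RPKM + 0.1), 6 members were more positive and 6 more negative.

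Healthy epithelial and healthy stromal cells showed where the members lie in healthy colon. Of 41 tested, 17 were higher in epithelial cells (41.5%) and 8 higher in stromal cells (19.5%), while 11.5% of all genes were higher in epithelial and 19.4% in stromal cells. Apical uptake genes were far apart. Slc26a3 measured 134, 279.6, 256 and 219 normalized CPM in epithelial and 0.303, 0.415, 0.32 and 3.77 in stromal libraries (log2FC 7.53, adjusted p = 0.000479). Slc9a2 measured 59.4, 124, 106 and 95 normalized CPM in epithelial and 0.627, 0.346, 1.2 and 0.984 in stromal libraries (log2FC 6.93, adjusted p = 2.48e-05). The stromal libraries were near 1 CPM or under it for Slc9a2. Slc9a3 measured 3.65, 16.4, 9.66 and 33.8 normalized CPM in epithelial and 1.3, 1.52, 0.961 and 0.295 in stromal libraries (log2FC 3.94, adjusted p = 0.00296). The sodium channel subunit Scnn1a measured 37.7, 34.5, 43.2 and 14.1 normalized CPM in epithelial and 0.994, 0.969, 1.4 and 2.56 in stromal libraries (log2FC 4.45, adjusted p = 0.000191). Stromal library 4, which held the most epithelial marker RNA of its group, was the highest stromal library for Slc26a3 and Scnn1a, and likewise for Cftr, Slc12a2, Slc4a4, Slc26a2 and Atp1b1. It was the lowest for Slc9a3 and Slc4a2, and not the highest for Slc9a2, Slc4a7 and Slc12a8. The part of epithelial RNA in these values was not tested.

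Secretory and sulfate transport genes followed the same order. Cftr measured 252, 218, 199 and 158 normalized CPM in epithelial and 0.346, 0.104, 0.12 and 8.82 in stromal libraries (log2FC 6.46, adjusted p = 0.00629). Slc12a2 measured 423, 432, 434 and 157 normalized CPM in epithelial and 74.1, 51.6, 45 and 111 in stromal libraries (log2FC 2.36, adjusted p = 0.00183). The stromal cells had a clear level of Slc12a2, which many cell types use to regulate volume. Slc4a4 measured 191, 262, 176 and 96.1 normalized CPM in epithelial and 26.6, 18.3, 12.4 and 75.4 in stromal libraries (log2FC 2.45, adjusted p = 0.00809). Slc4a7 measured 229.8, 249, 253 and 112 normalized CPM in epithelial and 31.1, 19.6, 24.4 and 28.2 in stromal libraries (log2FC 3.03, adjusted p = 0.000134). Slc4a2 measured 46.8, 56.3, 49.7 and 54.4 normalized CPM in epithelial and 13.4, 20.8, 17.9 and 12.9 in stromal libraries (log2FC 1.67, adjusted p = 0.000603). All 3 bicarbonate transporters were higher in every epithelial than in any stromal library. Slc26a2 measured 805, 943, 861 and 594 normalized CPM in epithelial and 46.2, 36.6, 47.1 and 70.7 in stromal libraries (log2FC 4.00, adjusted p = 3.16e-05). Slc12a8 measured 37.1, 28.8, 33.1 and 17.5 normalized CPM in epithelial and 2.08, 5.12, 3.16 and 2.98 in stromal libraries (log2FC 3.13, adjusted p = 0.000295). Neither overlapped between the cell types.

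The pump's beta subunits split by cell type. Atp1b1 measured 354, 459.7, 496 and 466 normalized CPM in epithelial and 9.53, 3.7, 5.65 and 35.2 in stromal libraries (log2FC 5.04, adjusted p = 0.000714). It was higher in every epithelial library. Atp1b2, the beta subunit of glia, measured 0, 0, 0.8 and 5.93 normalized CPM in epithelial and 71.1, 42.2, 66.1 and 56.2 in stromal libraries (log2FC -5.33, adjusted p = 0.0125). That subunit was higher in every stromal library. Of the cation chloride cotransporters, 2 were called higher in stromal cells. Slc12a4 was at 0.447, 0.589, 0.4 and 0.148 normalized CPM in epithelial and 17.7, 16.4, 16.1 and 17.5 in stromal libraries (log2FC -5.30, adjusted p = 3.2e-05). Slc12a5, the potassium chloride cotransporter of neurons, was at 0.298, 0.864, 0.628 and 0.89 normalized CPM in epithelial and 3.91, 8.06, 4.13 and 2.49 in stromal libraries (log2FC -2.79, adjusted p = 0.00368). Among the other transport genes, 31 of 54 tested were higher in epithelial cells (57.4%) and 6 in stromal cells (11.1%). On the RPKM scale, with the same pseudocount, limma called 10 members higher in epithelial and 8 in stromal cells.

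**Figure D4:**
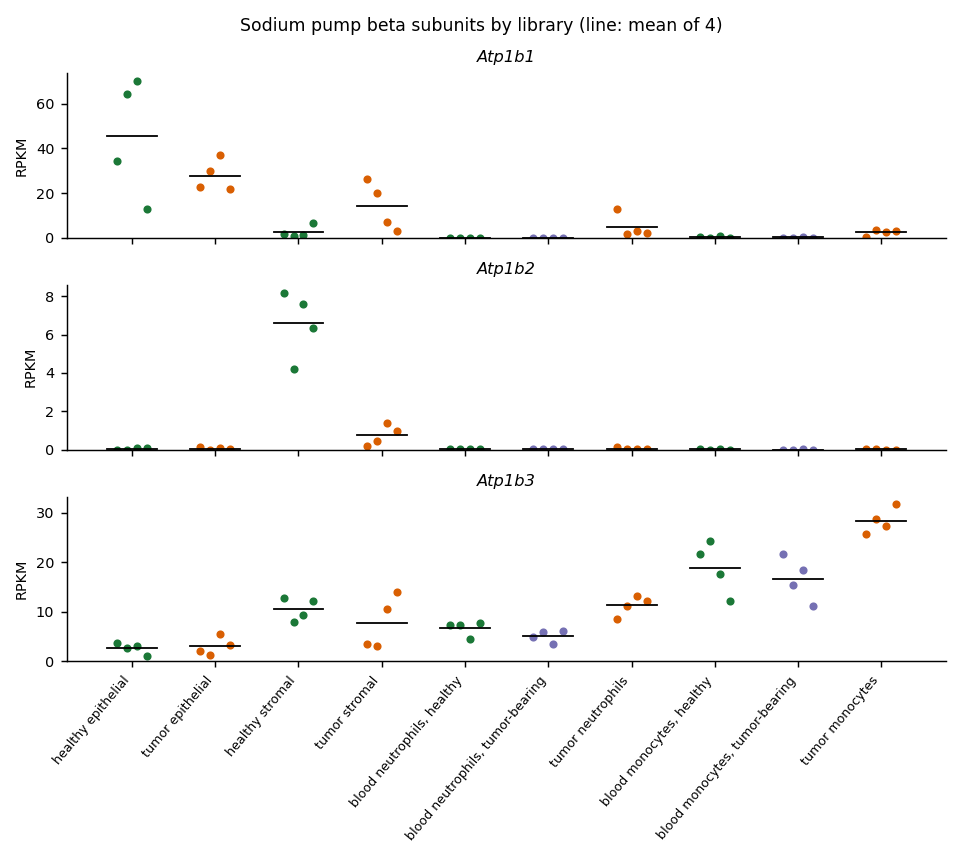
RPKM (y axis, from 0, 1 scale per gene) of the sodium pump subunits Atp1b1, Atp1b2 and Atp1b3 in each of the 40 libraries (points) by group (x axis), with group means. Atp1b1 is highest in epithelial cells, Atp1b2 in healthy stromal cells and Atp1b3 in tumor monocytes.

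Blood cells carried members of their own. Scnn1a was more abundant per length in healthy blood neutrophils, at 11.4, 6.36, 7.93 and 8.51 RPKM, than in any other group, with a mean of 8.54 ± 2.09 RPKM against 2.27 ± 1.49 in healthy epithelial cells (SD, n = 4). In order, the group means continued with 6.09 ± 3.44 RPKM in the tumor-bearing mice's blood neutrophils, 3.07 ± 1.87 in tumor neutrophils, 2.27 in healthy epithelium, and under 1 RPKM in the remaining 6 groups. Each of these leading groups overlapped with its neighbor in this order, and healthy blood neutrophils overlapped with neither tumor neutrophils nor healthy epithelium. The partner subunits were near 0 there: Scnn1b and Scnn1g did not exceed a mean of 0.0134 RPKM in either blood neutrophil group. Of the 14 epithelial markers, 13 were under 0.1 RPKM in healthy blood neutrophils. Scnn1a (chr6:125320659-125344943, plus strand, GRCm38) ends 4419 bases before Tnfrsf1a, a tumor necrosis factor receptor gene on the same strand, which was at 19.6 to 28.6 RPKM in healthy blood neutrophils and 11.7 to 14.8 RPKM in healthy blood monocytes. Its part in the Scnn1a counts was not tested.

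**Figure D5:**
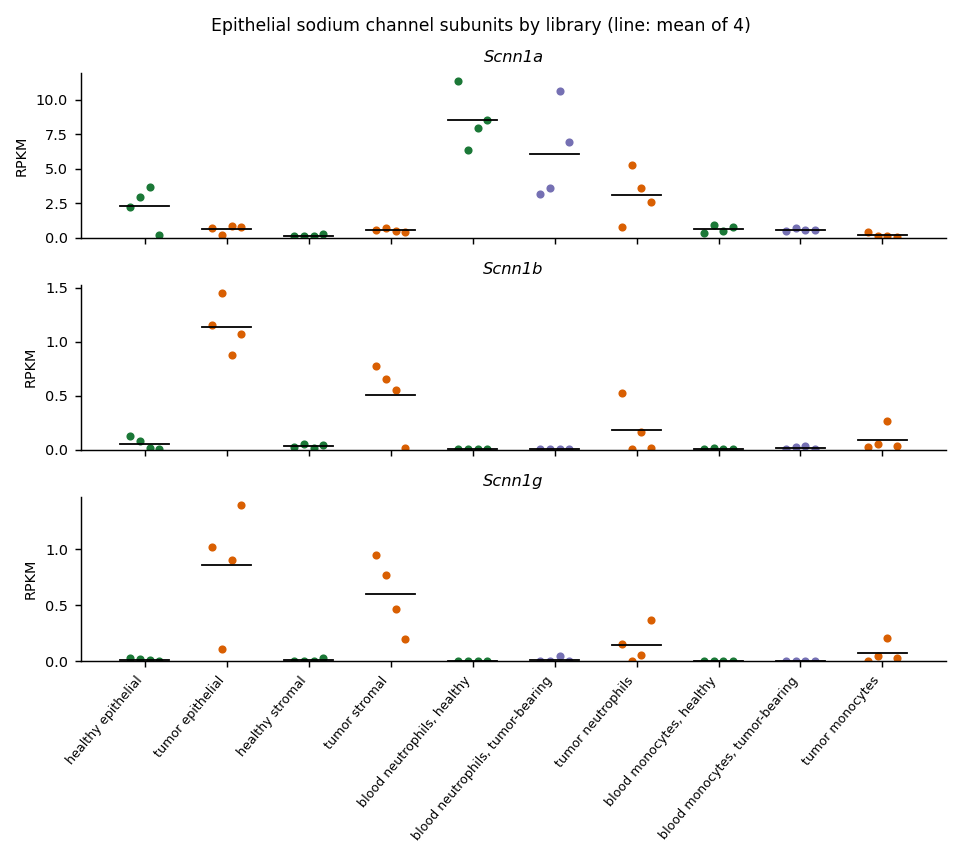
RPKM (y axis) of Scnn1a, Scnn1b and Scnn1g in each of the 40 libraries (points) by group (x axis), with group means. Scnn1a is highest in blood neutrophils, where the other subunits are near 0, and Scnn1b and Scnn1g are highest in tumor epithelial cells.

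Healthy blood neutrophils and monocytes were compared directly. Of 29 members tested, 5 were higher in neutrophils (17.2%) and 8 higher in monocytes (27.6%), while 16.7% and 20.4% of all genes were, so the members' shares lay near the background. Scnn1a measured 261, 128, 215 and 211 normalized CPM in neutrophils and 4.35, 13.5, 7.08 and 11.3 in monocytes (log2FC 4.50 ± 0.40, adjusted p = 2.57e-05). Slc26a11 was also higher in neutrophils, at 50.1, 47.7, 41.9 and 38.4 normalized CPM in neutrophils and 12.3, 3.96, 11.7 and 6.3 in monocytes (log2FC 2.37 ± 0.38, adjusted p = 0.000668). Monocytes had more of the cotransporter Slc12a2, which measured 3.2, 3.33, 0.304 and 0.252 normalized CPM in neutrophils and 36.4, 9.09, 47.1 and 20.4 in monocytes (log2FC -3.99 ± 0.89, adjusted p = 0.0044). All 4 monocyte libraries were above every neutrophil library for it. Slc4a7 measured 9.5, 18.4, 18.8 and 21.4 normalized CPM in neutrophils and 79.8, 56.8, 64.9 and 74.7 in monocytes (log2FC -2.02 ± 0.28, adjusted p = 0.000319). Slc9a7, an exchanger of the trans-Golgi network, measured 1.17, 2.32, 0.608 and 0.421 normalized CPM in neutrophils and 14.4, 16.1, 15.2 and 15 in monocytes (log2FC -3.71 ± 0.55, adjusted p = 0.00042). None of these 5 genes, all of them called, overlapped between the cell types, and the share of all genes without overlap is not given. Atp1b3 was the leading beta subunit of both blood cell types, with 6.71 ± 1.48 RPKM in neutrophils and 18.9 ± 5.28 RPKM in monocytes (SD, n = 4). By limma on log2(RPKM + 0.1), 3 members were higher in neutrophils and 7 in monocytes.

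Tumor neutrophils were compared with blood neutrophils of tumor-bearing mice, with 1 animal in both groups by the titles. Xist was at 0.0176 to 0.0345 RPKM in tumor and 0.0173 to 7.35 RPKM (median 3.17) in blood neutrophils. Sex therefore partly followed these groups, and its part was not tested. Of 30 members tested, 9 were higher in the tumor (30.0%) and 4 lower (13.3%), while 11.9% of all genes were higher and 4.41% lower. Atp1b1 measured 0.454, 0.799, 0.171 and 0.0653 normalized CPM in blood and 107, 29.2, 30.0 and 18.8 in tumor neutrophils (log2FC 6.89 ± 0.92, adjusted p = 0.001). Slc12a2 measured 0.404, 0.799, 1.11 and 2.61 normalized CPM in blood and 79, 2.74, 14.4 and 6.37 in tumor neutrophils (log2FC 4.38 ± 1.11, adjusted p = 0.0209). Tumor library 1, with the most epithelial marker RNA (189.6 RPKM summed), was the highest for both. Slc4a7 measured 6.56, 5.77, 8.38 and 3.59 normalized CPM in blood and 52, 30.1, 19.1 and 26.4 in tumor neutrophils (log2FC 2.39 ± 0.50, adjusted p = 0.00797). Slc26a2 measured 23.4, 21, 30.2 and 30.1 normalized CPM in blood and 133, 38.9, 68.3 and 80.1 in tumor neutrophils (log2FC 1.61 ± 0.41, adjusted p = 0.0212). Slc9a8 measured 18.7, 19, 7.35 and 13.4 normalized CPM in blood and 43.4, 78.4, 29.5 and 31.8 in tumor neutrophils (log2FC 1.64 ± 0.48, adjusted p = 0.0367). Of these 3, Slc4a7 and Slc26a2 were again highest in tumor library 1 and Slc9a8 in library 2. The groups did not overlap for any of these genes, all of them called. Slc4a4, Slc26a9 and Slc12a7 were called higher from under 1 RPKM in both groups.

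Among the members lower in tumor neutrophils was Slc9a9, an endosomal exchanger, which measured 9.83, 10.5, 77.6 and 68.1 normalized CPM in blood and 5.41, 0, 0.891 and 4.06 in tumor neutrophils (log2FC -3.98 ± 1.17, adjusted p = 0.0388), with both groups widely spread. Slc26a10 was called lower from under 1 RPKM in both groups. Scnn1a did not pass the test, at 51.4, 57.7, 195 and 119 normalized CPM in blood and 10.9, 138, 59.5 and 41.1 in tumor neutrophils (log2FC -0.76 ± 0.68, adjusted p = 0.477), and its groups overlapped. Without tumor neutrophil library 1, 7 members were called, among them Atp1b1 at a log2FC of 6.08 with an adjusted p of 0.0024, while Slc12a2 had 2.68 with an adjusted p of 0.0643, Slc9a8 1.68 with an adjusted p of 0.0544 and Slc9a9 -4.60 with an adjusted p of 0.0566. There Slc26a2 at 1.26 with an adjusted p of 0.0393 missed the fold threshold. Without blood neutrophil library 3, 7 were called as well. Among the other transport genes, 10 of 32 tested were higher (31.2%) and 1 lower (3.12%), led by Car1 at a log2FC of 9.31. Car1 is a marker of surface colonocytes, whose list summed to 57.6 RPKM in tumor neutrophil library 1 and 8.5 to 19.3 RPKM in the others. Cftr, which did not pass the filter there, was at 36.2, 0.422, 4.39 and 0.667 normalized CPM in tumor neutrophils, likewise highest in library 1, and the part of epithelial RNA in these values was not tested. The neutrophil gate was positive for CD45 and negative for EpCAM. The study reports purity checks of sorted tumor neutrophils and monocytes, and the purity of these libraries was not tested here. For the RPKM values, limma with that pseudocount called 5 members higher and 6 lower.

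Tumor monocytes against blood monocytes of tumor-bearing mice gave 8 calls, with 1 animal in both groups by the titles. Xist was at 0.0142 to 0.0492 RPKM in tumor and 0.0184 to 18.7 RPKM (median 7.64) in blood monocytes. Here too sex partly followed the groups, and its part was not tested. Of 30 members tested, 5 were higher in the tumor (16.7%) and 3 lower (10.0%), while 7.76% of all genes were higher and 3.89% lower. Slc4a11 measured 0.0956, 5.97, 0.61 and 0.412 normalized CPM in blood and 29.9, 24.6, 10.1 and 33.7 in tumor monocytes (log2FC 3.79 ± 1.04, adjusted p = 0.0312). Atp1b1 measured 1, 0.746, 2.85 and 0.962 normalized CPM in blood and 3.91, 36.2, 33 and 29.5 in tumor monocytes (log2FC 4.21 ± 0.75, adjusted p = 0.00353). Tumor library 1 had the least epithelial marker RNA of its group (1.99 RPKM summed against 12.3 to 39.4) and the least Atp1b1. Its Slc4a11 was at 29.9 normalized CPM, against 10.1 to 33.7 in the other tumor libraries. The part of epithelial RNA in these values was not tested. Slc26a9, Slc9a4 and Slc9a5 were called higher from under 1 RPKM. Slc12a9 was lower, at 78.8, 35.1, 35.4 and 34.8 normalized CPM in blood and 11.5, 10.9, 7.95 and 8.36 in tumor monocytes (log2FC -2.25 ± 0.37, adjusted p = 0.00214). Slc26a10 measured 7.89, 13.4, 16.3 and 5.77 normalized CPM in blood and 1.74, 0.767, 3.68 and 2.19 in tumor monocytes (log2FC -2.37 ± 0.60, adjusted p = 0.022). The groups did not overlap for these 4 genes, all of them called. Per length, tumor monocytes held 28.4 ± 2.52 RPKM of Atp1b3 (SD, n = 4), the highest Atp1b3 mean of any group. Leaving out blood monocyte library 1, 3 or 4 gave 5 calls, and leaving out tumor monocyte library 2 gave 4. Of 28 other transport genes tested, 6 were higher and 2 lower, among them Sgk1, the kinase that keeps ENaC at the membrane, at 2.99 RPKM in blood and 16.6 RPKM in tumor monocytes (log2FC 2.73, adjusted p = 6.19e-05). The same test on RPKM called 2 members higher and 3 lower.

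Blood cells of tumor-bearing mice were compared with those of healthy mice. In blood neutrophils 0 of 27 members tested were called, with 4.01% of all genes called in either direction. At an unadjusted p under 0.05 there were 3 (Slc26a1, Slc4a7 and Slc26a2), and DESeq2 and limma-voom also called 0. Scnn1a had a log2FC of -0.43 ± 0.41 (adjusted p = 0.605). In blood monocytes 0 of 29 were called, with 0.209% of all genes called, and 4 had an unadjusted p under 0.05, among them Slc12a2 at -2.14 ± 0.60 (adjusted p = 0.218). Here DESeq2 called 1 and limma-voom 0. The shares of all genes at an unadjusted p under 0.05 are not given, so the counts of 3 and 4 have no background beside them. A missing call does not show equal levels.

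Slc4a1, the anion exchanger band 3 of red cells, reached its highest level in tumor stromal library 3, at 4.64 RPKM. The same library held the most erythroid marker RNA of the 40, at 4518 RPKM summed, and Slc4a1 was called higher in healthy stromal than in healthy epithelial cells with overlapping groups (log2FC -3.57 ± 1.09, adjusted p = 0.0274). The part of red cell RNA in that call was not tested.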

How the data were processed

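RNA of sorted cells was converted to double-stranded cDNA with NuGEN amplification, fragmented and made into libraries with an Illumina TruSeq Nano DNA kit, a chemistry that does not mark strand. The submitters' processing notes name bcl2fastq, Bowtie2, limma and the build mm10, and the study's methods cite HTSstation for mapping and counting. Versions and the treatment of reads with several places are not given in the sources used here. The authors deposited estimated counts per Ensembl gene, of which 99.6% of the nonzero values were not whole, and these were rounded to whole numbers before testing. The deposited RPKM values, which the authors computed per gene length and library size, were used for levels between groups and between genes.

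Each comparison used its own 8 libraries with TMM scaling, filterByExpr and edgeR 4.0.16's robust quasi-likelihood test (R 4.3.3), fitted on all genes with Benjamini-Hochberg adjustment, and the interaction used the 16 epithelial and stromal libraries. A call needed an adjusted p under 0.05 and a log2 fold change past 1.5 (the adjusted p alone for the interaction). Alternatives were DESeq2 1.42.0, limma 3.58.1 (voom, and log2(RPKM + 1) and log2(RPKM + 0.1)), RLE size factors, other filters, no mitochondrial genes, all 40 libraries in 1 model, a replicate block and leaving out each library. The main fit of each comparison of groups was also read without the fold threshold. The rule for named genes allowed any member, with values in every library for 10 core transporters in the epithelial comparison and for each called member with a mean of at least 1 RPKM. Other transport genes were named if called with a mean of at least 5 RPKM. Lack of overlap was read only for named genes, largely called ones, and the share of all genes without overlap is not given. The members, gene lists and motifs were chosen with earlier results of these data known. Results of some members are not reported here, although counts of members include them. Depth was 10717873 to 38002939 counts. No 2 of the 60 replicate pairs were duplicates. The p-values measure only the spread between these samples, for which separate animals are shown by title alone. Titles show animals or pools shared between the groups of 5 tests, namely healthy epithelial against stromal cells, tumor against blood neutrophils and monocytes, healthy blood cells and the interaction, and these fits treated the libraries as independent. Tumor stromal replicate number 3 appears on 2 samples in the labels, here replicates 3 and 4. On simulated counts, the epithelial comparison recovered 47% of genes changed 4-fold and 78% changed 8-fold (16085 genes), and the tumor neutrophil comparison 15% and 36% (13674 genes). The simulation changed 200 genes, fewer than were called in either comparison, and scored recovery by adjusted p and direction without the fold threshold. The percentages therefore do not give the recovery of the reported calls. Promoters came from RefSeq (GRCm38.p6) and gene positions from GENCODE M21.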

Additional observations from a re-analysis of the deposited data

Results flagged for a closer look

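In 9 of the 62 groups of 4 libraries examined, 1 library stood apart from the other 3 by Dixon's gap test, where chance alone gives about 1 group in 20. Slc26a9 was at 41.5 normalized CPM against 17.3 to 19.6 in the other 3 libraries in tumor epithelial library 2. In healthy epithelial library 1 the same gene was at 2.58 normalized CPM and at 0 in the other 3. Slc12a2 in healthy epithelial library 4 had 127 normalized CPM against 332 to 349 in the other 3 libraries. Slc9a8 in tumor epithelial library 2 had 9.43 normalized CPM against 16.2 to 17.4 in the other 3 libraries. Tumor neutrophil library 1, which held the most epithelial marker RNA of its group, had 107 normalized CPM against 18.8 to 30.0 in the other 3 libraries for Atp1b1 and 79 normalized CPM against 2.74 to 14.4 in the other 3 libraries for Slc12a2. Among blood monocytes of tumor-bearing mice, library 3 had 2.85 normalized CPM against 0.746 to 1 in the other 3 libraries for Atp1b1, library 2 had 5.97 normalized CPM against 0.0956 to 0.61 in the other 3 libraries for Slc4a11, and library 1 had 78.8 normalized CPM against 34.8 to 35.4 in the other 3 libraries for Slc12a9.

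The tumor change differed between epithelial and stromal cells for 19 members by the interaction term of edgeR's quasi-likelihood test, given as the epithelial minus the stromal log2 fold change. Negative differences included those of Slc9a2 -6.42 (adjusted p = 6.01e-05), Slc26a3 -5.60 (adjusted p = 0.00637), Cftr -5.21 (adjusted p = 0.0316), Scnn1a -4.32 (adjusted p = 0.000761), Atp1b1 -4.10 (adjusted p = 0.00992). Further negative differences were those of Slc26a2 -3.82 (adjusted p = 8.71e-05), Slc4a7 -3.23 (adjusted p = 0.000281), Slc26a1 -3.20 (adjusted p = 0.0426), Slc9a3 -3.15 (adjusted p = 0.0471), Slc12a2 -2.20 (adjusted p = 0.00722), and smaller ones those of Slc12a8 -2.01 (adjusted p = 0.0347), Slc9a8 -1.83 (adjusted p = 0.0188), Slc4a2 -1.51 (adjusted p = 0.0236). Positive differences included those of Slc4a3 4.68 (adjusted p = 0.0217), Slc12a4 4.33 (adjusted p = 7.34e-05), Slc12a5 2.70 (adjusted p = 0.0345). The stromal side of each difference rests on tumor stromal libraries of which 2 held much epithelial marker RNA and all held little fibroblast RNA.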

How the results depend on the processing

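No called member changed direction in any of the 8 comparisons of groups, but counts of calls moved with scale, filter and single libraries, and the cause was not tested. Requiring 10 counts in every library, which tests fewer genes, left 13 calls in the epithelial comparison (22 as reported), 4 in the stromal, 13 between healthy epithelial and stromal cells, 8 in tumor neutrophils, 4 in tumor monocytes, 5 between blood cell types and 12 in the interaction. In the same order, limma on log2(RPKM + 1) gave 6, 1, 10, 3, 1, 2 and 11. On log2(RPKM + 0.1) the epithelial comparison had 14, tumor monocytes 5 and the interaction 12. Only Slc9a3 in the interaction reversed, to 0.12 on log2(RPKM + 1). All 40 libraries in 1 model gave 24 calls in tumor neutrophils, and DESeq2 gave 1 in blood monocytes between kinds of mice. A term for sex by Xist, chosen after seeing the data, gave 9 in the epithelial comparison.

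Leaving out each library in turn gave 21 to 24 calls in the epithelial comparison, 3 to 10 in the stromal, 20 to 25 between healthy epithelial and stromal cells, 7 to 18 for neutrophils of tumor against blood, 4 to 7 for the monocytes, 10 to 14 between blood cell types and 13 to 19 in the interaction. The stromal count was 3 without healthy stromal library 1, 2 or 3 and 4 without tumor stromal library 2. No pairing by replicate number was seen in the epithelial comparison, where correlations of same-numbered deviations ran from -0.05 to -0.008. In no comparison did they exceed 0.1 for every pair. They were highest in blood monocytes between kinds of mice, at 0.084 to 0.251 against -0.172 to 0.129 for other pairs. With the replicate block there were 21, 8, 21, 8, 5, 11 and 14 calls in that order, and 0 in both blood comparisons between kinds of mice. Titles show that 6 of the 8 healthy blood libraries and 6 of the 16 of the interaction shared an animal or pool with another. Treating these as correlated (limma-voom, chosen after seeing the data) gave 13 and 17 calls, the counts of limma-voom without that correlation, and in the interaction both lacked calls for Slc9a3, Slc12a5 and Slc26a1. Of 2185 values of called members tested under alternatives, 1814 kept direction and call and 370 kept direction only. Of 107 calls, 20 were lost under no alternative in which the member was tested. A called member that a filter left untested was not counted as lost. The values include the main fit read without the fold threshold, where each call between groups is kept by construction. Depth limits members under 1 RPKM, where a few reads decide a fold change.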
